A study of Mus musculus with 48 samples.

Results

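Pyramidal cells of mouse ventral CA1 that project to the nucleus accumbens were set against ventral CA1 pyramidal cells for which the labels name no target. The libraries were assigned to groups by their labels alone, and the comparison used 6 of the 48 libraries of the series, 3 accumbens-projecting and 3 ventral CA1. All 37620 Ensembl genes of the count table were members, and 12981 of them passed the filter on low counts and were tested. The series covers 16 populations of hippocampal neurons with 3 libraries each, described as biological replicates. Both groups here are CA1 pyramidal neurons that were picked out by hand as fluorescent cells from microdissected slices. The label by which either population was made fluorescent, the strain, age and sex of the mice, and whether animals were pooled are not given in the sources used here. The 3 amygdala-projecting ventral CA1 libraries are shown beside the accumbens-projecting ones as another projection-defined population.

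Ventral CA1 is the part of the CA1 field that sends axons out of the hippocampal formation to the nucleus accumbens, the amygdala, the hypothalamus and the prefrontal cortex. The nucleus accumbens, the ventral part of the striatum, receives this glutamatergic input together with dopamine fibres and is known for its part in reward-guided behaviour. Single ventral CA1 neurons can reach several of these targets, so a general ventral CA1 sample can itself hold accumbens-projecting cells. Genes for transmitter release, surface receptors, adhesion molecules and axon guidance are the groups by which projection neurons of a single field are often compared.

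The accumbens-projecting libraries held 13.8 to 17.3 M reads in genes (1 M being 1000000 reads) and the ventral CA1 libraries 5.12 to 8.35 M reads. ERCC spike-in sequences made up 0.64% to 1.11% of reads in accumbens-projecting libraries and 2.72% to 8.29% in ventral CA1. Replicates were less alike in the accumbens-projecting group, with a Pearson r of log2(CPM + 0.5) across genes of 0.797 to 0.838, against 0.934 to 0.957 in ventral CA1. CPM are the reads of a gene per 1000000 reads in genes, with library sizes adjusted by the TMM method, and are not divided by gene length. The CA1 markers Fibcd1 and Mpped1 were read in every library, and the 9 CA1 markers summed to 771 to 1188 CPM in accumbens-projecting and 998 to 1079.8 CPM in ventral CA1 libraries. Accumbens-projecting replicate 3 stood apart by interneuron genes. Its Sst level was 514 CPM and its Gad2 level 37.3 CPM, where accumbens-projecting replicates 1 and 2 had 5.68 and 0.365 CPM of Sst and 0.861 and 0.731 CPM of Gad2. Results are therefore also given without that library. Xist, the RNA of the inactive X chromosome, had no read in any accumbens-projecting library and 6.33, 6.12 and 5.45 CPM in ventral CA1 (edgeR adjusted p = 0.0791), while the Y-linked Ddx3y was read in all 6 libraries.

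Of the 12981 genes tested, 265 (2.04%) differed between accumbens-projecting and ventral CA1 cells at an edgeR adjusted p under 0.05. Accumbens-projecting cells were higher for 193 genes (1.49%) and lower for 72 (0.555%). The genes that rose had a median log2 fold change of 1.45, and 78 of them differed at least 3-fold. The genes that fell had a median of -1.24, and 18 of them differed at least 3-fold. In all 265, every library of one group lay above every library of the other, which was also true of 1434 (11.0%) and 1569 (12.1%) of all genes tested, upwards and downwards. The unadjusted p was under 0.05 for 1846 genes (14.2%). In bulk libraries such as these, fewer cells of a type and less RNA per cell cannot be told apart.

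**Figure D1:**
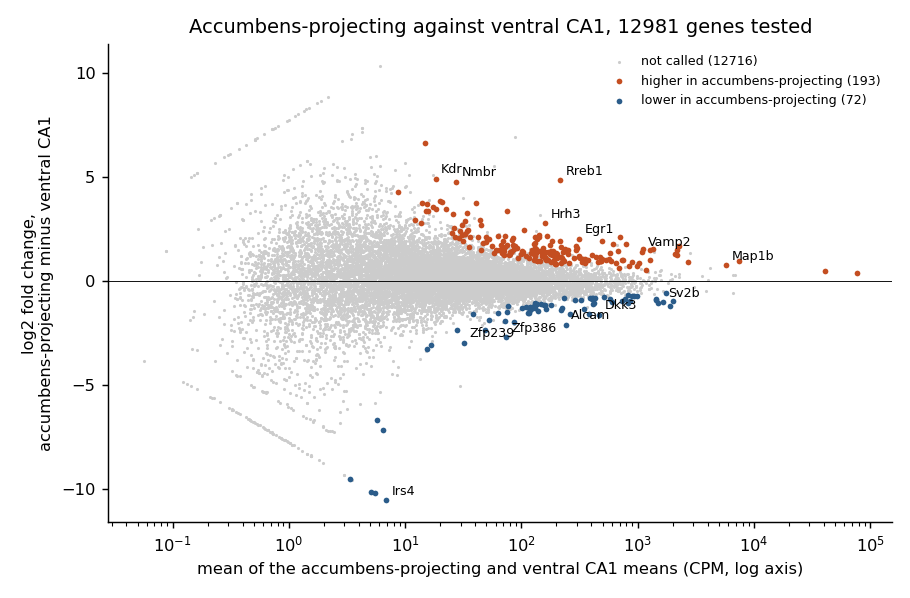
Each point is a gene: the x axis is the average of the accumbens-projecting and ventral CA1 means in CPM (log axis), and the y axis is the log2 fold change, accumbens-projecting minus ventral CA1. Orange points are the 193 genes called higher and blue points the 72 called lower, and the diagonal edges at low levels hold genes with no read in one of the groups.

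The balance of the calls depended on scaling and their number on single libraries. Genes higher in accumbens-projecting cells made up 72.8% of the calls with TMM scaling, 57.6% with upper-quartile scaling (144 higher and 106 lower), 61.0% with DESeq2 and 46.6% in a fit of all 48 libraries. The median log2 fold change of all genes was 0.11 with TMM and 0.0017 with upper-quartile scaling, and every log2 fold change given here includes that shift. The count was 185, 286 and 164 without accumbens-projecting replicate 1, 2 or 3, and 64, 66 and 134 without ventral CA1 replicate 1, 2 or 3.

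The 12 genes ranked highest by fold among those that rose included receptors, transcription factors and regulators of growth. Among them was Rreb1, a zinc-finger transcription factor that acts downstream of Ras signalling. Rreb1 stood at 183, 327 and 732 CPM in accumbens-projecting libraries, against 12.2, 14.6 and 16.5 CPM in ventral CA1 (log2 fold change 4.85 ± 0.46 SE, edgeR adjusted p = 7.77e-05). The lowest accumbens-projecting library lay more than 10-fold above the highest ventral library. Amygdala-projecting libraries also held Rreb1, at 198, 138 and 287 CPM. Scrt2, a zinc-finger repressor of the Snail family, had 44.3, 50.5 and 30.1 CPM in accumbens-projecting libraries, against 2.73, 5.58 and 2.95 CPM in ventral CA1 (log2 fold change 3.48 ± 0.61 SE, edgeR adjusted p = 0.00725). The 3 accumbens-projecting libraries were close to each other and clear of the ventral ones. Scrt2 was not called without ventral replicate 1 or 3 (highest adjusted p 0.0685). Rreb1 kept its call whichever library of the 6 was left out. Single libraries also moved log2 fold changes, since that of Rreb1 was 4.13 without accumbens-projecting replicate 3.

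Nmbr, the receptor for neuromedin B, a bombesin-like peptide, had 8.61, 119 and 32.1 CPM in accumbens-projecting libraries, against 3.6, 1.26 and 0.908 CPM in ventral CA1 (log2 fold change 4.78 ± 1.07 SE, edgeR adjusted p = 0.0306). It was read at 1.28, 1.49 and 0.103 CPM in amygdala-projecting cells. The high value was that of accumbens-projecting replicate 2, and the groups did not overlap. Kdr, which encodes the receptor VEGFR2 and is best known from endothelial cells, had 42.5, 10.8 and 53.4 CPM in accumbens-projecting libraries, against 0, 0 and 3.29 CPM in ventral CA1 (edgeR adjusted p = 0.0287). The ventral level rests on 29 reads, all in ventral replicate 3, and the fitted log2 fold change ran from 4.34 to 11.98 as single libraries were left out. Amygdala-projecting libraries had 65.6, 31.4 and 95.8 CPM of Kdr, and both these projection-defined groups were above ventral CA1 in every library. Postsubiculum-projecting CA1, another projection-defined population of the series, had no read of Kdr. The calls of these receptors were lost for Kdr without accumbens-projecting replicate 1 or 3, for Nmbr without accumbens-projecting replicate 2 or ventral replicate 3, and for Nmbr and Kdr without ventral replicate 1 or 2, with the highest adjusted p at 0.196 for Nmbr. Of log2 fold changes that 1 library moved, that of Nmbr was 3.40 without accumbens-projecting replicate 2 and 5.61 without ventral replicate 1. Other settings ended the calls of Kdr in the fit of the 6 libraries alone or with limma on FPKM and Nmbr and Kdr in the fit of 48 libraries.

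Among the other ranked genes that rose was Cdkn1a, the cyclin-dependent kinase inhibitor p21. It had 48.7, 10.5 and 58.1 CPM in accumbens-projecting libraries, against 1.86, 0.18 and 6.13 CPM in ventral CA1 (log2 fold change 3.80 ± 0.83 SE, edgeR adjusted p = 0.028). Phlda1, a pleckstrin-homology-domain protein induced by growth factor signalling, had 51.4, 15.3 and 163 CPM in accumbens-projecting libraries, against 3.6, 4.32 and 8.97 CPM in ventral CA1 (log2 fold change 3.76 ± 0.70 SE, edgeR adjusted p = 0.0108). In both genes accumbens-projecting replicate 2 was the low one of its group, still above the ventral libraries. Mov10, an RNA helicase, averaged 26.2 ± 17.5 CPM in accumbens-projecting and 1.9 ± 0.835 CPM in ventral CA1 cells (SD, n = 3 each). Zc3h3, a zinc-finger protein of mRNA export, averaged 33.9 ± 15.6 and 3.09 ± 0.864 CPM in accumbens-projecting and ventral CA1 cells. Tbc1d2b, a Rab GTPase-activating protein, averaged 16.4 ± 6.52 CPM in accumbens-projecting and 0.843 ± 0.529 CPM in ventral CA1 cells, and the lipid-transfer protein Stard5 averaged 28.9 ± 24.6 CPM in accumbens-projecting and 2.23 ± 1.52 CPM in ventral CA1 cells. The remaining ranked genes, Syt10 and Rgma, are described with their groups. These calls were lost for Cdkn1a, Zc3h3, Tbc1d2b and Stard5 without accumbens-projecting replicate 1, for Mov10, Zc3h3, Tbc1d2b and Stard5 without accumbens-projecting replicate 2 or ventral replicate 3, for Cdkn1a, Mov10 and Tbc1d2b without accumbens-projecting replicate 3, and for Cdkn1a, Phlda1, Mov10, Zc3h3, Tbc1d2b and Stard5 without ventral replicate 1 or 2, with the highest adjusted p at 0.229 for Tbc1d2b. Where 1 library moved a log2 fold change, that of Cdkn1a was 5.17 without ventral replicate 3, that of Phlda1 was 2.55 without accumbens-projecting replicate 3 and that of Stard5 was 2.91 without accumbens-projecting replicate 2 and 4.30 without ventral replicate 2. Settings that keep all libraries ended the calls of Cdkn1a, Phlda1, Mov10, Tbc1d2b and Stard5 in the fit of the 6 libraries alone, Cdkn1a in the fit of 48 libraries, Cdkn1a, Phlda1, Mov10, Zc3h3, Tbc1d2b and Stard5 with limma on FPKM and Tbc1d2b with upper-quartile scaling or when thinned.

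Among the genes that fell, 3 had no read in any accumbens-projecting library. Irs4, an adaptor of insulin and growth factor receptors, had 14.9, 11.9 and 14.5 CPM in ventral CA1, so its level in accumbens-projecting cells was at least 72-fold lower, with 3 reads per library taken as the limit of a count of 0. Agrp, the agouti-related peptide of hypothalamic hunger neurons, had 9.92, 11 and 11.9 CPM in ventral CA1 and was at least 57.2-fold lower by the same limit. Eya1, a transcriptional coactivator with a phosphatase domain, had 6.95, 6.12 and 17.7 CPM in ventral CA1 and was at least 53.6-fold lower. None of the 3 had a read in amygdala-projecting libraries either. The edgeR adjusted p was 0.0165 for Irs4, 0.0287 for Agrp and 0.0358 for Eya1. Exons of Agrp overlap those of Ctcf on the opposite strand, and the strand used in counting is not given in the sources used here. Calls of these genes were lost for Agrp and Eya1 without accumbens-projecting replicate 1 or 3, for Eya1 without accumbens-projecting replicate 2, and for Irs4, Agrp and Eya1 without ventral replicate 1, 2 or 3, with the highest adjusted p at 0.235 for Eya1. Calls were also lost for Irs4 and Eya1 with limma on FPKM, Eya1 with voom and Agrp and Eya1 with replicate number as a block.

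Zfp386, a zinc-finger protein, had 21.3, 23.4 and 14.9 CPM in accumbens-projecting libraries, against 131, 142 and 113 CPM in ventral CA1 (log2 fold change -2.70 ± 0.35 SE, edgeR adjusted p = 0.000836). Zfp239, another zinc-finger protein, had 4.93, 11.1 and 5.78 CPM in accumbens-projecting and 55.7, 36.2 and 27.4 CPM in amygdala-projecting libraries, against 63.8, 65.9 and 40.9 CPM in ventral CA1 (log2 fold change -2.97 ± 0.50 SE, edgeR adjusted p = 0.00584). Mynn, a BTB-domain zinc-finger protein, had 1.78, 6.14 and 2.74 CPM in accumbens-projecting and 30.1, 33.6 and 41.7 CPM in amygdala-projecting libraries, against 11.5, 39.8 and 38.9 CPM in ventral CA1 (log2 fold change -3.08 ± 0.65 SE, edgeR adjusted p = 0.0241). For Zfp239 and Mynn the accumbens-projecting libraries lay below the other 6, while Zfp386 was about as low in amygdala-projecting libraries, at 12.9, 15.8 and 11.4 CPM. Zfyve1, a lipid-binding protein of autophagosome formation, had 2.3, 3.87 and 2.5 CPM in accumbens-projecting and 13, 12.7 and 8.44 CPM in amygdala-projecting libraries, against 29.3, 31.1 and 23.8 CPM in ventral CA1 (log2 fold change -3.28 ± 0.65 SE, edgeR adjusted p = 0.0154). Calls were lost here for Mynn and Zfyve1 without accumbens-projecting replicate 1 or ventral replicate 2 or 3, for Mynn without accumbens-projecting replicate 3, and for Zfyve1 without ventral replicate 1, with the highest adjusted p at 0.14 for Mynn. Zfp386 and Zfp239 kept their calls whichever library of the 6 was left out. Among log2 fold changes moved by a single library, that of Mynn was -3.73 without accumbens-projecting replicate 2. No call was made for Mynn in the fit of the 6 libraries alone or with limma on FPKM and Mynn and Zfyve1 with voom.

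Alcam, an immunoglobulin-family adhesion molecule that guides axons, had 124, 124 and 22.7 CPM in accumbens-projecting and 6.51, 5.8 and 11 CPM in amygdala-projecting libraries, against 459, 389.8 and 319.8 CPM in ventral CA1 (log2 fold change -2.11 ± 0.46 SE, edgeR adjusted p = 0.0287). Accumbens-projecting replicate 3 was the low one of its group, and the 3 groups did not overlap. Ttyh1, a membrane protein of the Tweety family, averaged 16 ± 10.1 CPM in accumbens-projecting and 80.5 ± 25.1 CPM in ventral CA1 cells. Trappc6b, a subunit of the TRAPP vesicle-tethering complex, averaged 35.3 ± 19.9 and 138 ± 20.6 CPM in accumbens-projecting and ventral CA1 cells. The MAGE-family gene Magee2 averaged 9.05 ± 3.0 CPM in accumbens-projecting and 46.9 ± 10.4 CPM in ventral CA1 cells. Myl12a, a myosin regulatory light chain, had 0.172, 0.0731 and 0.0609 CPM in accumbens-projecting libraries, against 13.6, 3.6 and 16.8 CPM in ventral CA1 (edgeR adjusted p = 0.028), but its near-identical neighbour Myl12b moved the other way, at 438, 315 and 705 CPM in accumbens-projecting libraries, against 216, 239.8 and 255 CPM in ventral CA1 (edgeR adjusted p = 0.0329). Reads of this pair can be split between the genes in counting, so both are uncertain. Among these genes calls were lost for Magee2 and Myl12a without accumbens-projecting replicate 1, for Ttyh1, Trappc6b and Myl12a without accumbens-projecting replicate 2, for Ttyh1, Trappc6b, Magee2 and Myl12a without accumbens-projecting replicate 3 or ventral replicate 3, and for Alcam, Ttyh1, Trappc6b, Magee2 and Myl12a without ventral replicate 1 or 2, with the highest adjusted p at 0.274 for Ttyh1. With every library kept, calls were lost for Alcam, Ttyh1 and Trappc6b in the fit of the 6 libraries alone, Magee2 in the fit of 48 libraries, Alcam with limma on FPKM, Magee2 and Myl12a with voom and Ttyh1 with GC and length offsets.

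Other annotated genes share exon bases with some genes named by the ranking and list rules or called against amygdala-projecting cells. Without a stated strand, the source of a read is uncertain in those bases. These genes are Nmbr, Tbc1d2b, Cdkn1a, Phlda1, Stard5, Rgma, Irs4, Agrp, Myl12a, Ttyh1, Col5a1, Dnaja1, Neto1, Hrh3, Matn2, Sv2b, Ppp3r1, Sptbn1 and Grm2. For Stard5, Agrp, Myl12a, Dnaja1 and Ppp3r1 an overlapping gene lies on the same strand, so a stated strand would not settle it. Overlaps of the other genes described are not given here.

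**Figure D2:**
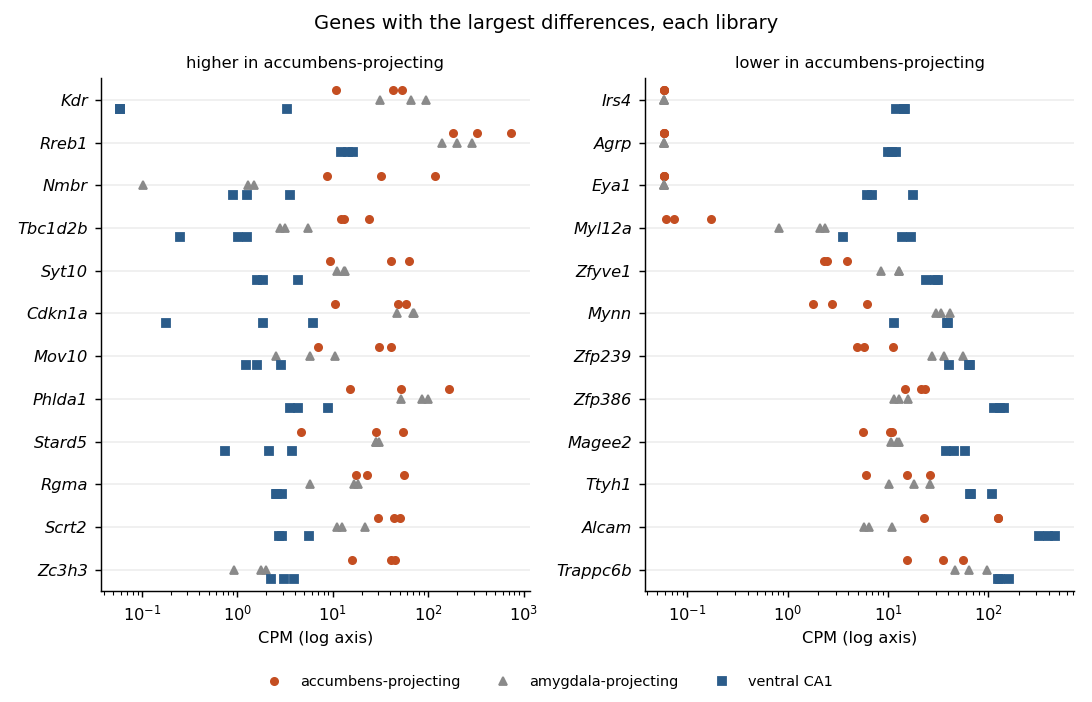
CPM of each library (log axis) for the 12 genes with the largest rises and the 12 with the largest falls in accumbens-projecting cells. Circles are accumbens-projecting, triangles amygdala-projecting and squares ventral CA1 libraries, and libraries with no read are drawn at the left edge. Circles and squares do not overlap in any row.

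Most genes of transmitter release that passed the test were higher in accumbens-projecting cells, as were 72.8% of all calls. Of 46 presynaptic release genes tested, 7 rose, 1 fell and 38 did not pass the test. Over all genes tested 1.49% rose and 0.555% fell. The median log2 fold change of the list was 0.23, against 0.11 for all genes tested. Vamp2, the vesicle SNARE that drives fusion, stood at 1593, 1702 and 1457 CPM in accumbens-projecting libraries, against 609, 552 and 633 CPM in ventral CA1 (log2 fold change 1.41 ± 0.13 SE, edgeR adjusted p = 7.77e-05). Its 3 values in each group were tight and far apart from the other group's. Syn1, the phosphoprotein synapsin that tethers vesicles, stood at 1856, 1493 and 2339 CPM in accumbens-projecting libraries, against 685, 677 and 682 CPM in ventral CA1 (log2 fold change 1.48 ± 0.16 SE, edgeR adjusted p = 0.000133). Syp, the vesicle protein synaptophysin, stood at 1787, 1115 and 2246 CPM in accumbens-projecting libraries, against 826, 726 and 1002 CPM in ventral CA1 (log2 fold change 1.01 ± 0.22 SE, edgeR adjusted p = 0.0244). Accumbens-projecting replicate 2 was the lowest of its group for Syn1 and Syp, and both groups stayed apart.

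Cplx1, the fusion clamp complexin, had 164, 128 and 258 CPM in accumbens-projecting libraries, against 56.1, 55.4 and 114 CPM in ventral CA1 (log2 fold change 1.28 ± 0.31 SE, edgeR adjusted p = 0.044). Ventral replicate 3 was the highest of its group for Cplx1, just under the lowest accumbens-projecting library. Syt10, a calcium-sensing synaptotagmin, had 9.41, 62.4 and 41.2 CPM in accumbens-projecting libraries, against 1.86, 1.62 and 4.31 CPM in ventral CA1 (log2 fold change 3.84 ± 0.77 SE, edgeR adjusted p = 0.0162). The small vesicle GTPase Rab3c averaged 3521 ± 931 CPM in accumbens-projecting and 1868 ± 294 CPM in ventral CA1 cells (edgeR adjusted p = 0.0108). Sv2b, a synaptic vesicle glycoprotein, was the member that fell, with 1205, 1033 and 1012 CPM in accumbens-projecting libraries, against 2118, 2271 and 2245 CPM in ventral CA1 (log2 fold change -1.03 ± 0.14 SE, edgeR adjusted p = 0.000903). Calls of this group were lost for Syp and Cplx1 without accumbens-projecting replicate 1 or 3, for Syt10 without accumbens-projecting replicate 2, and for Syp, Cplx1, Rab3c and Syt10 without ventral replicate 1 or 2, with the highest adjusted p at 0.264 for Cplx1. Vamp2, Syn1 and Sv2b kept their calls whichever library of the 6 was left out. Other settings ended the calls of Syp and Cplx1 in the fit of the 6 libraries alone, Sv2b in the fit of 48 libraries, Syp, Cplx1 and Rab3c with limma on FPKM and Cplx1 with upper-quartile scaling.

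Receptors for amines and peptides rose where they passed the test, beside 1.49% of all genes tested rising and 0.555% falling. Of 28 monoamine and acetylcholine receptors tested, 2 rose and none fell, and of 25 neuropeptide receptors 2 rose and none fell, with median log2 fold changes of 0.18 and 0.31. Hrh3, the histamine H3 receptor, which restrains transmitter release, stood at 237, 160.2 and 441 CPM in accumbens-projecting and 265, 331 and 283 CPM in amygdala-projecting libraries, against 32.9, 37.8 and 52.1 CPM in ventral CA1 (log2 fold change 2.77 ± 0.33 SE, edgeR adjusted p = 0.000312). All 6 projection-defined libraries were above the 3 ventral ones. Htr2a, the serotonin 2A receptor, had 5.85, 37.4 and 20.6 CPM in accumbens-projecting and 33.7, 83.2 and 69.5 CPM in amygdala-projecting libraries, against 3.47, 3.96 and 1.02 CPM in ventral CA1 (log2 fold change 2.93 ± 0.71 SE, edgeR adjusted p = 0.0444). Its lowest accumbens-projecting value, in replicate 1, was close to the highest ventral value. Tacr3, the neurokinin B receptor, had 32, 34.7 and 118 CPM in accumbens-projecting and 61.2, 44.7 and 93.3 CPM in amygdala-projecting libraries, against 0.496, 8.28 and 10.4 CPM in ventral CA1 (log2 fold change 3.27 ± 0.78 SE, edgeR adjusted p = 0.0408), and the other peptide receptor that rose was Nmbr. Calls of the amine receptors and Tacr3 were lost for Tacr3 without accumbens-projecting replicate 1, for Htr2a without accumbens-projecting replicate 2, and for Htr2a and Tacr3 without accumbens-projecting replicate 3 or ventral replicate 1, 2 or 3, with the highest adjusted p at 0.2 for Htr2a. Hrh3 kept its call whichever library of the 6 was left out. Single libraries also moved log2 fold changes, since that of Htr2a was 2.25 without accumbens-projecting replicate 2 and that of Tacr3 was 2.37 without accumbens-projecting replicate 3. Settings that keep all libraries ended the calls of Htr2a and Tacr3 in the fit of the 6 libraries alone or with limma on FPKM, Tacr3 in the fit of 48 libraries and Htr2a with voom or with upper-quartile scaling.

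Glutamate receptor genes changed in both directions, with 2 of 25 tested rising and 2 falling (median log2 fold change 0.20). All genes tested gave 1.49% rises and 0.555% falls. Grin1, the obligatory subunit of NMDA receptors, had 474, 276 and 556 CPM in accumbens-projecting libraries, against 205, 229 and 180.5 CPM in ventral CA1 (log2 fold change 1.09 ± 0.26 SE, edgeR adjusted p = 0.0444). Grin2a, the NMDA receptor subunit GluN2A, had 310.5, 277 and 201 CPM in accumbens-projecting libraries, against 592, 622 and 464 CPM in ventral CA1 (log2 fold change -1.09 ± 0.21 SE, edgeR adjusted p = 0.014). Thus the libraries of accumbens-projecting cells were the higher ones for Grin1 and the lower ones for Grin2a. Gria1, the AMPA receptor subunit GluA1, had 724, 654 and 735 CPM in accumbens-projecting libraries, against 1218, 1234 and 1005 CPM in ventral CA1 (log2 fold change -0.71 ± 0.14 SE, edgeR adjusted p = 0.016). Neto1, an auxiliary subunit of kainate receptors, had 489.8, 317 and 485 CPM in accumbens-projecting libraries, against 196, 218 and 278 CPM in ventral CA1 (log2 fold change 0.90 ± 0.21 SE, edgeR adjusted p = 0.0408). None of 17 GABA receptor genes passed the test in either direction, with a median log2 fold change of -0.43. Over all genes tested 2.04% were called, so no call among 17 is not set apart from genes in general. In 5 of the 17 every accumbens-projecting library was below every ventral one, against 12.1% of all genes tested. Glutamate receptor calls were lost for Grin1 and Neto1 without accumbens-projecting replicate 1 or 3 or ventral replicate 3, and for Grin1, Neto1, Gria1 and Grin2a without ventral replicate 1 or 2, with the highest adjusted p at 0.259 for Neto1. Calls were also lost for Grin1 and Neto1 in the fit of the 6 libraries alone or with upper-quartile scaling, Neto1 in the fit of 48 libraries, Grin1, Neto1 and Grin2a with limma on FPKM and Grin1 and Gria1 with GC and length offsets.

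**Figure D3:**
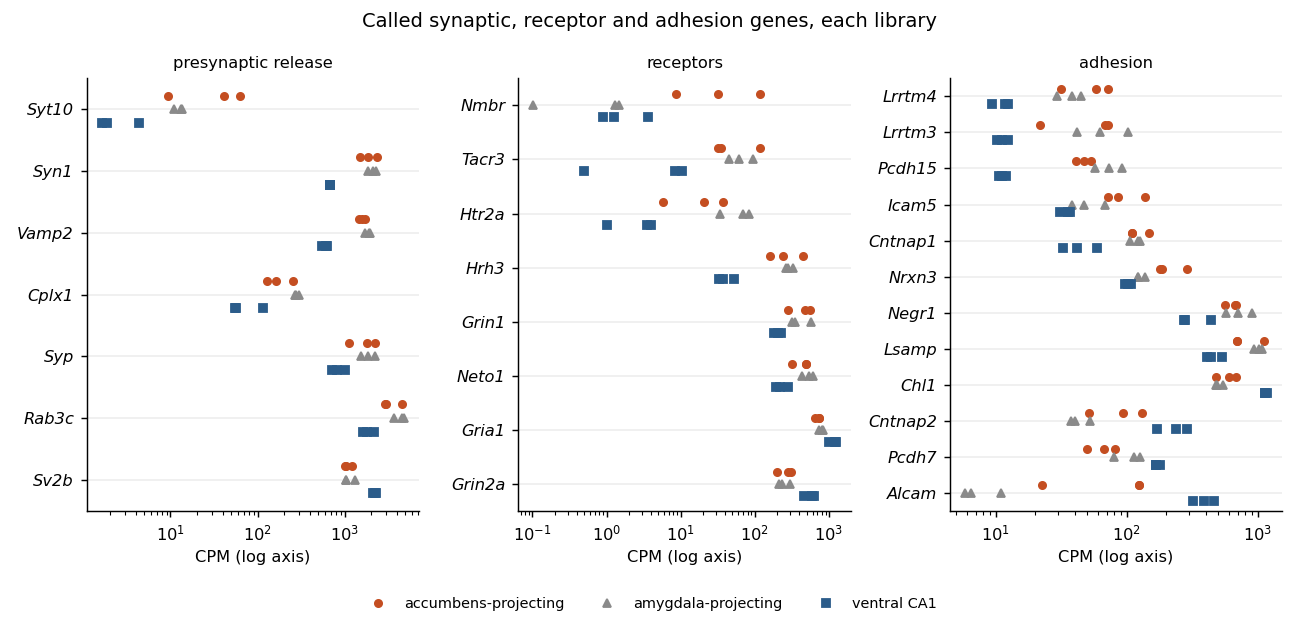
CPM of each library (log axis) for called members of 3 groups: presynaptic release genes, receptors of the glutamate, amine and peptide lists, and cell adhesion genes. Circles are accumbens-projecting, triangles amygdala-projecting and squares ventral CA1 libraries. Circles lie right of squares for genes that rose and left of them for genes that fell, such as Sv2b, Gria1, Grin2a and Alcam.

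Ion channel genes were counted beside all genes tested, of which 1.49% were called higher and 2.04% called in all. Of 64 potassium channel genes 1 rose, and of 30 sodium and calcium channel genes none passed in either direction (median log2 fold changes 0.04 and 0.22). The potassium channel gene was Kcng1, a modulatory subunit that has no current alone, with 129, 135 and 341 CPM in accumbens-projecting libraries, against 61.6, 49.9 and 61.5 CPM in ventral CA1 (log2 fold change 1.81 ± 0.35 SE, edgeR adjusted p = 0.0149). Accumbens-projecting replicate 3 was the highest library and the groups did not overlap. Among 53 genes of signalling enzymes and RGS proteins 1 rose and 3 fell (median -0.23). Rgs17, which shortens signalling by G proteins of the Gi class, averaged 276 ± 34.6 CPM in accumbens-projecting and 122 ± 16.6 CPM in ventral CA1 cells (edgeR adjusted p = 0.00943). The calcineurin subunit genes Ppp3r1 and Ppp3ca fell together, at 1013 ± 182 and 1011 ± 320.03 CPM in accumbens-projecting cells, against 1839.6 ± 226 and 1884 ± 156 CPM in ventral CA1 (log2 fold changes -0.86 and -0.90). Itpr1, the calcium release channel of the endoplasmic reticulum, had 746, 500.1 and 340.5 CPM in accumbens-projecting libraries, against 1253, 1120.5 and 951 CPM in ventral CA1 (log2 fold change -1.07 ± 0.23 SE, edgeR adjusted p = 0.028). In this group calls were lost for Ppp3ca without accumbens-projecting replicate 1 or ventral replicate 3, for Itpr1 without accumbens-projecting replicate 2 or 3, for Kcng1, Rgs17, Ppp3ca and Itpr1 without ventral replicate 1, and for Kcng1, Ppp3r1, Ppp3ca and Itpr1 without ventral replicate 2, with the highest adjusted p at 0.161 for Itpr1. Of log2 fold changes that 1 library moved, that of Kcng1 was 1.18 without accumbens-projecting replicate 3. No call was made for Ppp3ca and Itpr1 in the fit of the 6 libraries alone, Kcng1, Rgs17 and Itpr1 with limma on FPKM and Ppp3ca with GC and length offsets.

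Cell adhesion molecules changed in both directions, 8 of 76 tested rising and 4 falling (median log2 fold change 0.07). All genes tested gave 1.49% rises and 0.555% falls. Of the synapse organisers, Lrrtm3 and Lrrtm4, postsynaptic partners of neurexins and heparan sulfate proteins, both rose. Lrrtm4 had 57.9, 72.3 and 31.6 CPM in accumbens-projecting libraries, against 9.3, 11.7 and 12.4 CPM in ventral CA1 (log2 fold change 2.28 ± 0.46 SE, edgeR adjusted p = 0.0165). Lrrtm3 had 67.6, 21.8 and 71.5 CPM in accumbens-projecting libraries, against 11.2, 10.3 and 12.5 CPM in ventral CA1 (log2 fold change 2.24 ± 0.49 SE, edgeR adjusted p = 0.0287). For both the ventral libraries were close to each other and below every accumbens-projecting library. Nrxn3, the presynaptic neurexin 3, had 184, 181 and 288 CPM in accumbens-projecting and 121, 137 and 122 CPM in amygdala-projecting libraries, against 103, 108 and 96 CPM in ventral CA1 (log2 fold change 1.09 ± 0.24 SE, edgeR adjusted p = 0.0291). Its accumbens-projecting values were the highest of the 9 libraries. Of these organisers calls were lost for Lrrtm3 without accumbens-projecting replicate 1, for Lrrtm3 and Nrxn3 without accumbens-projecting replicate 3, and for Lrrtm4, Lrrtm3 and Nrxn3 without ventral replicate 1, 2 or 3, with the highest adjusted p at 0.156 for Lrrtm3. With every library kept, calls were lost for Lrrtm3 and Nrxn3 in the fit of the 6 libraries alone, Lrrtm4 and Lrrtm3 in the fit of 48 libraries and Nrxn3 with upper-quartile scaling.

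Pcdh15, a protocadherin best known from the tip links of hair cells, had 40.8, 47.1 and 53.6 CPM in accumbens-projecting libraries, against 11.9, 10.6 and 11.1 CPM in ventral CA1 (log2 fold change 2.07 ± 0.37 SE, edgeR adjusted p = 0.00884). Cntnap1, a contactin-associated protein of axonal paranodes, averaged 122 ± 21.7 CPM in accumbens-projecting and 44.4 ± 13.4 CPM in ventral CA1 cells, while Cntnap2, its relative at juxtaparanodes, averaged 91.9 ± 39.3 and 232 ± 60.3 CPM and fell (log2 fold changes 1.46 and -1.34). Icam5, the dendritic adhesion molecule telencephalin, averaged 98.3 ± 34.2 CPM in accumbens-projecting and 34.7 ± 3.15 CPM in ventral CA1 cells. The IgLON proteins Lsamp and Negr1 rose, at 831 ± 238 and 636 ± 68 CPM in accumbens-projecting cells, against 460.2 ± 62.6 and 329 ± 93.6 CPM in ventral CA1. Chl1, the close homologue of L1 that shapes axon growth, fell, with 605, 677 and 477 CPM in accumbens-projecting libraries, against 1182, 1126 and 1133 CPM in ventral CA1 (log2 fold change -0.97 ± 0.16 SE, edgeR adjusted p = 0.00403). Pcdh7 averaged 65.8 ± 15.3 and 171 ± 8.03 CPM in accumbens-projecting and ventral CA1 cells (log2 fold change -1.38). Other adhesion calls were lost for Icam5, Negr1 and Cntnap2 without accumbens-projecting replicate 1, for Negr1 without accumbens-projecting replicate 2, for Cntnap1, Icam5, Lsamp, Negr1 and Cntnap2 without accumbens-projecting replicate 3, for Pcdh15, Cntnap1, Icam5, Lsamp, Negr1, Cntnap2 and Pcdh7 without ventral replicate 1 or 2, and for Icam5, Cntnap2 and Pcdh7 without ventral replicate 3, with the highest adjusted p at 0.304 for Cntnap2. Chl1 kept its call whichever library of the 6 was left out. Other settings ended the calls of Icam5, Lsamp, Negr1 and Cntnap2 in the fit of the 6 libraries alone, Pcdh15 and Pcdh7 in the fit of 48 libraries, Pcdh15, Cntnap1, Icam5, Lsamp, Negr1, Cntnap2 and Pcdh7 with limma on FPKM, Icam5, Lsamp and Negr1 with upper-quartile scaling, Icam5 and Cntnap2 with GC and length offsets and Cntnap2 with RLE scaling.

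Of 58 axon guidance genes, 3 rose and none fell (median log2 fold change -0.06), against 1.49% and 0.555% of all genes tested. Unc5a and Unc5d are receptors for netrins, a family of axon guidance cues, and Rgma is a repulsive ligand of neogenin. Unc5d had 33.6, 28.3 and 88.2 CPM in accumbens-projecting and 95.6, 78.5 and 79 CPM in amygdala-projecting libraries, against 8.06, 6.3 and 13.3 CPM in ventral CA1 (log2 fold change 2.43 ± 0.48 SE, edgeR adjusted p = 0.0155). Unc5a had 329.7, 234 and 471 CPM in accumbens-projecting and 225, 494 and 197 CPM in amygdala-projecting libraries, against 112, 124 and 145 CPM in ventral CA1 (log2 fold change 1.44 ± 0.33 SE, edgeR adjusted p = 0.0308). In both, all accumbens-projecting and amygdala-projecting libraries were above the ventral ones. Rgma had 55.9, 22.6 and 17.5 CPM in accumbens-projecting and 16.8, 18.2 and 5.71 CPM in amygdala-projecting libraries, against 2.6, 2.52 and 2.95 CPM in ventral CA1 (log2 fold change 3.57 ± 0.73 SE, edgeR adjusted p = 0.019), with accumbens-projecting replicate 1 the highest library. Guidance calls were lost for Unc5a and Rgma without accumbens-projecting replicate 1 or ventral replicate 3, for Unc5a and Unc5d without accumbens-projecting replicate 3, and for Unc5a, Unc5d and Rgma without ventral replicate 1 or 2, with the highest adjusted p at 0.18 for Unc5a. Where 1 library moved a log2 fold change, that of Unc5d was 1.73 without accumbens-projecting replicate 3 and that of Rgma was 2.89 without accumbens-projecting replicate 1. Settings that keep all libraries ended the calls of Unc5d in the fit of the 6 libraries alone, Rgma in the fit of 48 libraries and Unc5a, Unc5d and Rgma with limma on FPKM.

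Of 41 extracellular matrix genes, 2 rose and 1 fell (median 0.32), against 1.49% and 0.555% of all genes tested. Col5a1, a fibrillar collagen chain also counted among the subiculum markers, had 24.8, 29.4 and 32.5 CPM in accumbens-projecting libraries, against 2.48, 2.16 and 3.63 CPM in ventral CA1 (log2 fold change 3.38 ± 0.59 SE, edgeR adjusted p = 0.00698). The proteoglycan Spock1, a ventral pole gene of CA1, averaged 285 ± 84.5 CPM in accumbens-projecting and 113 ± 51.3 CPM in ventral CA1 cells (edgeR adjusted p = 0.0452). Matn2, the matrix adaptor matrilin 2, fell, with 27.3, 37.4 and 26.4 CPM in accumbens-projecting libraries, against 130.4, 113 and 98.5 CPM in ventral CA1 (log2 fold change -1.91 ± 0.32 SE, edgeR adjusted p = 0.00546). Cytoskeletal genes gave 2 rises and 1 fall among 38 tested (median -0.03). Map1b, a microtubule protein of growing axons, had 6710.2, 6770.4 and 8484 CPM in accumbens-projecting libraries, against 4317, 4120.2 and 4379.6 CPM in ventral CA1 (log2 fold change 0.78 ± 0.11 SE, edgeR adjusted p = 0.00164). Mapre3, which binds growing microtubule ends, averaged 248 ± 45.3 and 141 ± 1.71 CPM in accumbens-projecting and ventral CA1 cells, and the spectrin Sptbn1 1404 ± 122 and 2074 ± 27.6 CPM (log2 fold changes 0.82 and -0.56). Matrix and cytoskeleton calls were lost for Mapre3 and Sptbn1 without accumbens-projecting replicate 1, for Spock1 without accumbens-projecting replicate 2, for Spock1, Mapre3 and Sptbn1 without accumbens-projecting replicate 3 or ventral replicate 3, for Matn2, Col5a1, Spock1, Mapre3 and Sptbn1 without ventral replicate 1, and for Col5a1, Spock1, Mapre3 and Sptbn1 without ventral replicate 2, with the highest adjusted p at 0.226 for Mapre3. Map1b kept its call whichever library of the 6 was left out. Calls were also lost for Spock1 and Mapre3 in the fit of the 6 libraries alone or with upper-quartile scaling, Col5a1 and Spock1 in the fit of 48 libraries, Col5a1, Spock1, Mapre3 and Sptbn1 with limma on FPKM, Spock1 with voom and Sptbn1 with GC and length offsets.

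Immediate-early genes, which neurons switch on within minutes of strong activity, gave 2 rises and no fall among 20 tested. The log2 fold change was positive for 16 of the 20, with a median of 1.13. Over all 12981 genes tested it was positive for 7152, with a median of 0.11, and 1.49% were called higher. Egr1, a zinc-finger transcription factor of this class, stood at 446, 552 and 519 CPM in accumbens-projecting and 255, 337 and 487 CPM in amygdala-projecting libraries, against 116, 147 and 108 CPM in ventral CA1 (log2 fold change 2.03 ± 0.24 SE, edgeR adjusted p = 0.000273). Egr4, of the same family, had 51.6, 45.7 and 43.1 CPM in accumbens-projecting and 18.1, 25.7 and 40.1 CPM in amygdala-projecting libraries, against 7.81, 2.88 and 4.31 CPM in ventral CA1 (log2 fold change 3.22 ± 0.56 SE, edgeR adjusted p = 0.00654). For both genes the accumbens-projecting libraries were close to each other and separate from ventral CA1. Of the members that did not pass, Fos had 21.1, 14.5 and 30.7 CPM in accumbens-projecting libraries, against 4.59, 1.98 and 3.29 CPM in ventral CA1 (edgeR adjusted p = 0.0582), and Nr4a1 59.1, 85.5 and 26.2 CPM in accumbens-projecting libraries, against 11.7, 25.2 and 15 CPM in ventral CA1 (edgeR adjusted p = 0.0823). Homer1 and Btg2 were among the members with negative log2 fold changes, at -0.51 and -1.87, with edgeR adjusted p of 0.255 and 0.546. In 8 of the 20 every accumbens-projecting library was above every ventral one, and in 2 every one was below. Over all genes tested these shares were 11.0% and 12.1%. Egr4 was not called without ventral replicate 2 (highest adjusted p 0.068). Egr1 kept its call whichever library of the 6 was left out.

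Egr1 was lower in ventral CA1 than in the other CA1 populations. Its mean was 503 ± 51.5 CPM in accumbens-projecting and 124 ± 20.6 CPM in ventral CA1 cells, on a scaling common to all 48 libraries. Amygdala-projecting cells averaged 358 ± 114 CPM, and the means of the 7 remaining CA1 populations ran from 422 to 1091 CPM.

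EGR proteins bind the motif GCGNGGGCG, and cAMP-response element (CRE) binding proteins TGACGTCA, so the bases just before the start of 3 called genes that carry these letters are shown. They come from RefSeq for GRCm38.p6, a later build than that of the counts, run 5′ to 3′ on the gene's strand, and have the motif in capitals. Hrh3 and Syn1 rose in accumbens-projecting cells, and Chgb, which encodes chromogranin B, fell.
Hrh3, chr2:180104408-180104657, minus strand: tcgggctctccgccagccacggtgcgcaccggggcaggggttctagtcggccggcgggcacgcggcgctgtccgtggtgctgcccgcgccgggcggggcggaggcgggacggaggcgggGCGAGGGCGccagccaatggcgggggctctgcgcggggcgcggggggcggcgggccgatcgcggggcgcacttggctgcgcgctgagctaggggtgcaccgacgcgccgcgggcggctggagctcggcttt
Syn1, chrX:20920919-20921168, minus strand: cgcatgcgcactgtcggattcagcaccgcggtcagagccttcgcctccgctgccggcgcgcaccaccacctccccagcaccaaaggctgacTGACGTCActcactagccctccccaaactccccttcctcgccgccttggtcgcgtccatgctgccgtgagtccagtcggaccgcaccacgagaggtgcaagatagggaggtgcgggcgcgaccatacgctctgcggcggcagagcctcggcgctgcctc
Chgb, chr2:132781392-132781641, plus strand: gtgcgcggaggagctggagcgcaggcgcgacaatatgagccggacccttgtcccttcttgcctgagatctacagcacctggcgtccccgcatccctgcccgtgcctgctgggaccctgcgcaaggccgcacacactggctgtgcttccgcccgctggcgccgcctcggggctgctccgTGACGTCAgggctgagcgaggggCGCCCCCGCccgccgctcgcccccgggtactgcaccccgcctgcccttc
Searched on both strands in the 250 bases before the start, the EGR motif was in 4.7% of 32851 RefSeq promoters and the CRE in 1.55%. The Hrh3 window held the EGR motif, the Syn1 window the CRE, and the Chgb window both, the EGR motif there on the opposite strand and without overlap with the CRE. Since promoters were matched for 131 of the 193 genes that rose and 49 of the 72 that fell, too few of either list to read a share among called genes, none is given.

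Of 50 transcription factors of forebrain neurons, 5 rose, Egr1 among them, and 1 fell (median log2 fold change 0.17). Among all genes tested 1.49% rose and 0.555% fell. The LIM-domain proteins Lmo3 and Lmo4, cofactors that bind no DNA themselves, stood at 435 ± 41.8 and 476 ± 124 CPM in accumbens-projecting cells, against 197 ± 60.6 and 229.8 ± 16 CPM in ventral CA1. Foxp1, a forkhead repressor, had 579, 477 and 747 CPM in accumbens-projecting libraries, against 284, 263 and 258 CPM in ventral CA1 (log2 fold change 1.17 ± 0.18 SE, edgeR adjusted p = 0.00296). Nfix, of the nuclear factor I family, had 524, 344 and 449.9 CPM in accumbens-projecting libraries, against 178, 188 and 215 CPM in ventral CA1 (log2 fold change 1.18 ± 0.21 SE, edgeR adjusted p = 0.00734). The glucocorticoid receptor gene Nr3c1 fell, with 63.2, 86.6 and 53.7 CPM in accumbens-projecting libraries, against 179, 196 and 143 CPM in ventral CA1 (log2 fold change -1.35 ± 0.31 SE, edgeR adjusted p = 0.0325), and its 3 accumbens-projecting libraries were all under the ventral ones. Calls of these factors were lost for Lmo3, Lmo4 and Nr3c1 without accumbens-projecting replicate 1 or 3, for Lmo3, Lmo4, Nfix and Nr3c1 without ventral replicate 1 or 2, and for Lmo4 and Nr3c1 without ventral replicate 3, with the highest adjusted p at 0.213 for Nr3c1. Foxp1 kept its call whichever library of the 6 was left out. No call was made for Lmo3 in the fit of 48 libraries and Nr3c1 with limma on FPKM.

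Most protein-coding genes of the mitochondrial genome rose in accumbens-projecting cells. Of its 12 protein-coding genes tested, 11 rose, with a median log2 fold change of 1.53, and all 12 were positive under TMM, RLE and upper-quartile scaling. They and the mitochondrial RNAs took 15.4% to 16.8% of gene reads in accumbens-projecting and 11.3% to 12.9% in ventral CA1 libraries. For example mt-Nd2, a subunit of respiratory complex I, had 934, 1339.8 and 1146 CPM in accumbens-projecting libraries, against 226, 224 and 344 CPM in ventral CA1 (log2 fold change 2.11 ± 0.20 SE, edgeR adjusted p = 7.77e-05). The call count of the 12 fell to 8 without ventral replicate 1 or 2, and to 8 with GC and length offsets. It fell to 9 without accumbens-projecting replicate 3, with upper-quartile scaling or in the fit of the 6 libraries alone. Without accumbens-projecting replicate 1 or 2 it was 10. Of 77 nuclear oxidative phosphorylation genes, 5 rose and none fell (median 0.16): Cox6a1, Cox7c, Cox8a, Ndufc1 and Uqcr10. Among all genes tested 1.49% rose and 0.555% fell. Cox8a, a subunit of cytochrome oxidase, had 288, 174 and 292 CPM in accumbens-projecting libraries, against 109.9, 88.6 and 107 CPM in ventral CA1 (log2 fold change 1.30 ± 0.24 SE, edgeR adjusted p = 0.00933). Single calls were lost for Cox7c, Ndufc1 and Uqcr10 without accumbens-projecting replicate 1, for Cox6a1, Cox7c, Ndufc1 and Uqcr10 without accumbens-projecting replicate 3 or ventral replicate 3, and for Cox8a, Cox6a1, Cox7c, Ndufc1 and Uqcr10 without ventral replicate 1 or 2, with the highest adjusted p at 0.243 for Cox7c. With every library kept, calls were lost for Cox7c and Ndufc1 in the fit of the 6 libraries alone, Cox7c with upper-quartile scaling and Cox6a1 and Cox7c with GC and length offsets.

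Secretory and chaperone genes fell where they passed the test, beside 0.555% of all genes tested falling and 1.49% rising. Of 19 neuropeptide and granin genes 2 fell and none rose (median log2 fold change -0.46). Cpe, the carboxypeptidase that trims neuropeptide precursors, had 1000.5, 976 and 961 CPM in accumbens-projecting and 1449.9, 1083 and 1372 CPM in amygdala-projecting libraries, against 1791, 1911 and 2299.8 CPM in ventral CA1 (log2 fold change -1.03 ± 0.14 SE, edgeR adjusted p = 0.0015). Chgb, a core protein of dense-core granules, averaged 201 ± 43 CPM in accumbens-projecting and 383 ± 56.6 CPM in ventral CA1 cells (edgeR adjusted p = 0.0308). Of 16 heat shock and unfolded protein genes, 2 fell and none rose (median -0.59). Dnaja1, a co-chaperone of Hsp70, had 294, 249.9 and 272 CPM in accumbens-projecting libraries, against 536, 597 and 572 CPM in ventral CA1 (log2 fold change -1.06 ± 0.18 SE, edgeR adjusted p = 0.00654). Hsph1, a large Hsp70-related chaperone, had 477, 336 and 371 CPM in accumbens-projecting libraries, against 714, 771 and 920.4 CPM in ventral CA1 (log2 fold change -1.02 ± 0.19 SE, edgeR adjusted p = 0.0108). Of 47 genes of Wnt, activin, IGF, thyroid and retinoid signalling, Irs4 and Dkk3 fell (median 0.11), and Dkk3, a secreted protein of the dickkopf family, had 244, 292 and 150.1 CPM in accumbens-projecting libraries, against 705, 773 and 628 CPM in ventral CA1 (log2 fold change -1.62 ± 0.25 SE, edgeR adjusted p = 0.00296). Of these, calls were lost for Chgb without accumbens-projecting replicate 1 or 2 or ventral replicate 1, for Chgb, Dnaja1 and Hsph1 without ventral replicate 2, and for Chgb and Hsph1 without ventral replicate 3, with the highest adjusted p at 0.213 for Chgb. Cpe and Dkk3 kept their calls whichever library of the 6 was left out. Other settings ended the calls of Chgb in the fit of the 6 libraries alone.

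No gene passed the test among 12 genes of axon injury and regeneration (median -0.16) or 8 genes of innate immunity and interferon response (median -1.25). Over all genes tested 2.04% were called, so no call in lists this small is not set apart from genes in general. Of 10 glutamatergic and pyramidal markers 2 rose, Slc17a7 and Nrgn (median 0.49). Slc17a7, the vesicular glutamate transporter VGLUT1, had 2119, 1229.9 and 2669.7 CPM in accumbens-projecting libraries, against 743, 647 and 667 CPM in ventral CA1 (log2 fold change 1.55 ± 0.22 SE, edgeR adjusted p = 0.00145). Nrgn, the calmodulin-binding protein neurogranin of dendrites, had 871, 654 and 814 CPM in accumbens-projecting libraries, against 166, 192 and 261 CPM in ventral CA1 (log2 fold change 1.92 ± 0.21 SE, edgeR adjusted p = 0.000175). Both kept their calls whichever library was left out. None of 8 CA1 markers (median -0.40) and 6 dorsal pole genes (median -0.01) passed, and of 21 ventral pole genes Spock1 rose and Irs4 fell (median 0.27). The 5 sex-linked genes tested gave no call (median -0.54).

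Markers of other cell types varied between libraries. With 2.04% of all genes tested called, marker lists without a call, here and below, are not set apart from genes in general. The 14 GABAergic markers summed to 22.2, 60.1 and 199.7 CPM in accumbens-projecting and 23.1, 20.7 and 38.8 CPM in ventral CA1 libraries, in replicate order. Accumbens-projecting replicate 3 carried the high sum, with Gad1 at 17.3, Slc32a1 at 18.9, Reln at 90.2, Elfn1 at 58.1 and Erbb4 at 36.9 CPM, while Gad1 and Slc32a1 had no read in accumbens-projecting replicates 1 and 2. None of 6 GABAergic markers (median log2 fold change 1.85) and 11 interneuron subtype markers (median 0.23) passed the test, and the 17 subtype markers summed to 1224 to 2525 CPM in accumbens-projecting and 1429.98 to 1453 CPM in ventral CA1 libraries. For other hippocampal fields, none of 10 CA3 and CA2 markers (median 0.52) and 4 dentate markers (median -0.39) passed, and of 9 subiculum markers Col5a1 rose (median 0.91). The 13 CA3 and CA2 markers summed to 295 to 383 CPM in accumbens-projecting and 233 to 272 CPM in ventral CA1 libraries. The 10 dentate markers summed to 63.3 to 67.3 CPM in accumbens-projecting and 40.5 to 48.7 CPM in ventral CA1 libraries. For the 10 subiculum markers the sums were 187 to 376 CPM in accumbens-projecting and 111 to 157 CPM in ventral CA1 libraries. Whether cells or RNA of these other types had a part in the called differences was not tested. Without accumbens-projecting replicate 3, 122 genes rose and 42 fell.

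The 17 endothelial and mural markers summed to 60.4, 141 and 105 CPM in accumbens-projecting and 15.6, 5.94 and 14.4 CPM in ventral CA1 libraries. Of 5 tested, 4 had a positive log2 fold change and Kdr rose (median log2 fold change 2.82). Rgs5 made up most of the sum in accumbens-projecting replicate 2, with 125 CPM. Of the 17, 7 had no read in accumbens-projecting and 8 had none in ventral CA1 libraries. The endothelial genes Cldn5, Tie1 and Cdh5 were among those without a read in both groups. Whether vascular RNA had a part in the Kdr level was not tested. The sums of 13 astrocyte markers were 522 to 746 CPM in accumbens-projecting and 401 to 515 CPM in ventral CA1 libraries. Slc1a2, a glutamate transporter, had 505, 462 and 607 CPM in accumbens-projecting and 394, 366 and 485 CPM in ventral CA1 libraries. Of the 13, 6 had no read in accumbens-projecting and 5 had none in ventral CA1 libraries, with Gfap, Aldh1l1 and Gja1 unread in both. Sox9 had 4.53, 0.438 and 26.5 CPM in accumbens-projecting and 0, 0.54 and 0.341 CPM in ventral CA1 libraries (edgeR adjusted p = 0.212), highest in accumbens-projecting replicate 3. Glul had 26.3, 57.6 and 107 CPM in accumbens-projecting and 21.3, 24.8 and 23.5 CPM in ventral CA1 libraries (edgeR adjusted p = 0.163), with no overlap between the groups. For 15 oligodendrocyte markers the summed levels were 31.6 to 85.6 and 48.6 to 70.9 CPM, and for 15 microglial markers 6.45 to 15.5 and 5.22 to 9.18 CPM, in accumbens-projecting and ventral CA1 libraries, with no member passing the test. The 9 choroid plexus and ependymal markers summed to 24.1 to 37.4 CPM in accumbens-projecting and 12.3 to 25.2 CPM in ventral CA1 libraries, and neither of the members tested passed.

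**Figure D4:**
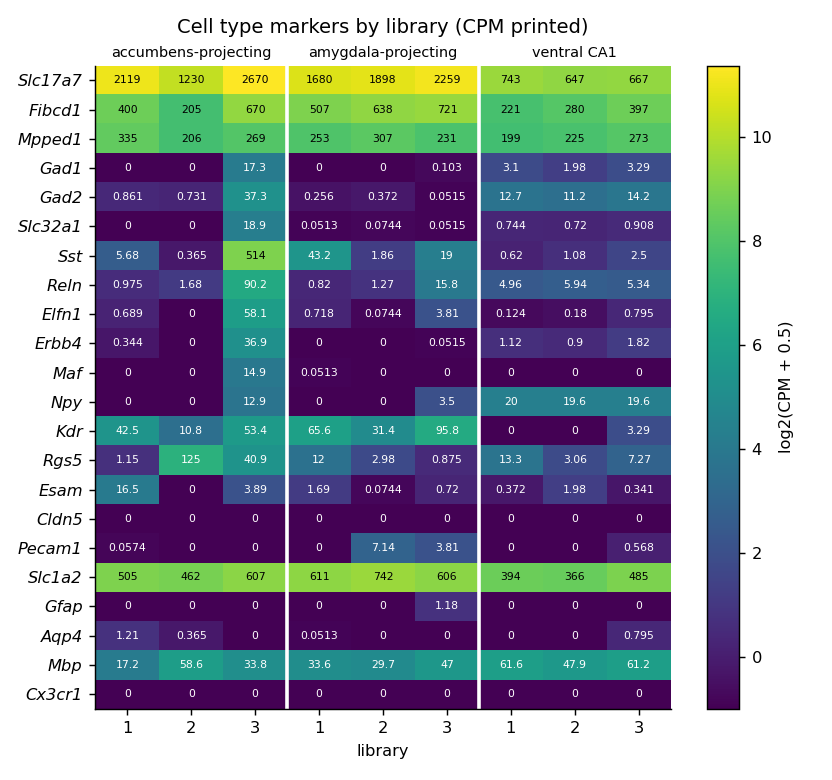
CPM of cell type markers in each library, with colour as log2(CPM + 0.5) and the CPM printed in each cell. Columns are the 3 accumbens-projecting, 3 amygdala-projecting and 3 ventral CA1 libraries. Interneuron genes from Gad1 to Maf stand out in accumbens-projecting replicate 3, and Kdr is read in all accumbens-projecting and amygdala-projecting libraries.

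Levels were also compared across CA1 populations. Set against the means of the 7 CA1 populations other than ventral and amygdala-projecting CA1, the accumbens-projecting mean was above all 7 for 153 of the 193 genes that rose (79.3%) and below all 7 for 58 of the 72 that fell (80.6%). Over all genes tested these shares were 26.5% and 20.6%. The ventral CA1 mean was below all 7 for 44 of the 193 (22.8%) and above all 7 for 13 of the 72 (18.1%), against 14.7% and 15.3% of all genes tested. Amygdala-projecting CA1 is left out of the 7, and against it the median log2 fold change of accumbens-projecting cells was 0.05 for the 193 and -0.17 for the 72, so the shares do not set accumbens-projecting cells apart from that population. The accumbens-projecting and ventral CA1 libraries that enter these shares also made the calls, so the shares are a description of means, with no test.

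Several genes that rose had low levels in those 7 populations. Rreb1 averaged 412 ± 282 CPM in accumbens-projecting and 14.5 ± 2.16 CPM in ventral CA1 cells, and the other 7 means ran from 1.14 to 6.13 CPM. Hrh3 averaged 278 ± 144 and 41.2 ± 10 CPM in accumbens-projecting and ventral CA1 cells, with the other means at 1.14 to 28 CPM, the highest in deep CA1. Kcng1 averaged 201 ± 119.7 CPM in accumbens-projecting and 58 ± 6.82 CPM in ventral CA1 cells, with the other means at 2.87 to 9.26 CPM. For these 3 genes ventral CA1 came between the accumbens-projecting level and every one of the 7 other means. Pcdh15 and Unc5d had the same order, except that the highest of the other means of Unc5d, in deep CA1, was above ventral CA1, 13.6 against 9.27 CPM. Rgma was not low in all 7. It averaged 31.9 ± 21 CPM in accumbens-projecting and 2.71 ± 0.228 CPM in ventral CA1 cells. Its other means ran from 1.42 CPM in intermediate CA1 to 32.2 CPM in deep and 32.9 CPM in postsubiculum-projecting CA1.

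The order differed among the genes that fell. Grin2a averaged 262 ± 56.7 CPM in accumbens-projecting and 563 ± 84.8 CPM in ventral CA1 cells, and 806 to 1146 CPM in the 7 others. Dkk3 averaged 228 ± 71.8 and 707 ± 73.5 CPM in accumbens-projecting and ventral CA1 cells, and 739 to 1097 CPM in the others. Accumbens-projecting cells were thus the lower end for both. Sv2b averaged 1079 ± 111 CPM in accumbens-projecting and 2225 ± 80.3 CPM in ventral CA1 cells, with the others at 700.4 to 1808 CPM, so that ventral CA1 was the higher end. Irs4 was read only in ventral, superficial and intermediate CA1 above 1 CPM, at 13 ± 2.77 CPM in superficial and 10.2 ± 0.216 CPM in intermediate cells.

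The comparison with amygdala-projecting cells used the same 3 accumbens-projecting libraries. In it 3 of 12981 genes passed the test (0.0231%), Alcam, Dlk1 and Grm2. Alcam, lowest in amygdala-projecting cells, had a log2 fold change of 3.54 ± 0.50 SE over them (edgeR adjusted p = 0.0161). Dlk1, a membrane ligand related to Notch ligands, had 15.4, 181 and 11.4 CPM in accumbens-projecting and 0.103, 0.149 and 0 CPM in amygdala-projecting libraries, against 45.5, 48.6 and 16 CPM in ventral CA1 (edgeR adjusted p = 0.0161 over amygdala-projecting cells). Accumbens-projecting replicate 2 was by far its highest library. Grm2, a presynaptic metabotropic glutamate receptor, had 18, 4.02 and 17.4 CPM in accumbens-projecting and 0, 0 and 0.0515 CPM in amygdala-projecting libraries, against 17.4, 12.2 and 12.6 CPM in ventral CA1 (edgeR adjusted p = 0.0161 over amygdala-projecting cells). No fold is given for Dlk1 and Grm2, since amygdala-projecting libraries held next to no reads of them. For Dlk1 and Grm2, accumbens-projecting and ventral CA1 libraries overlapped. The number of calls was 1, 2 and 11 without accumbens-projecting replicate 1, 2 or 3, and 3, 0 and 0 without amygdala-projecting replicate 1, 2 or 3. None of Alcam, Dlk1 and Grm2 was among the calls when any 1 amygdala-projecting library was left out, the 3 calls without replicate 1 being other genes. At an unadjusted p under 0.05 it held 1193 genes (9.19%). Among genes described against ventral CA1, the log2 fold change over amygdala-projecting cells was 1.00 ± 0.39 SE for Rreb1 (adjusted p = 0.445), beside 4.85 over ventral CA1. Hrh3 had -0.07 ± 0.31 SE over amygdala-projecting cells (adjusted p = 0.968), beside 2.77 over ventral CA1. Zfp239 had -2.45 ± 0.49 SE over amygdala-projecting cells (adjusted p = 0.157), beside -2.97 over ventral CA1. A p above the threshold does not show that the levels were alike.

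The series holds a further pair of a projection-defined and a general CA1 population, postsubiculum-projecting and dorsal CA1, which shares no library with the accumbens comparison. Of 12663 genes tested there, 663 (5.24%) were higher and 707 (5.58%) lower in postsubiculum-projecting cells. Of the 193 genes that rose in accumbens-projecting cells 185 were tested in this pair, and 149 (80.5%) had a positive log2 fold change, 77 of them called higher and 2 of the 185 called lower. Of the 72 that fell 70 were tested, and 11 (15.7%) had a positive log2 fold change, with 34 called lower and none higher. Among all genes tested in both comparisons 50.4% were positive. Vamp2, Nrgn, Egr1 and Map1b were called higher in both, with log2 fold changes of 0.76, 0.76, 1.02 and 0.54 over dorsal CA1. Zfp386, Cpe, Dkk3 and Sv2b were called lower in both, at -2.70, -1.48, -0.38 and -0.44. The 2 genes that rose over ventral CA1 but were called lower than in dorsal CA1 were Syp and Socs2. Syp had a log2 fold change of -0.51 there (edgeR adjusted p = 0.035), and the edgeR adjusted p of Socs2 was 0.0448. Low Zfp386 levels were not confined to projection-defined cells. Its means were 30.9, 38.8, 21.6 and 23.3 CPM in superficial, deep, proximal and distal CA1. In dorsal, intermediate and ventral CA1 they were 239, 151 and 130 CPM. Rreb1, at -0.01, and Kcng1, at -0.46, were not called in the postsubiculum pair.

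Depth and base composition are described here for both pairs. Accumbens-projecting libraries were deeper than ventral CA1, whereas postsubiculum-projecting libraries, with 12.9 to 16.5 M reads in genes, were shallower than dorsal CA1, with 22.1 to 30.1 M reads. The genes called higher in accumbens-projecting cells had a median transcript GC content of 53.0% and those called lower 46.8%, against 49.2% for all genes tested. In the postsubiculum pair the medians were 46.2% for all 663 genes called higher and 51.2% for all 707 called lower. They were not taken over the genes called in both pairs. With offsets for GC content and length, 193 genes rose and 56 fell in accumbens-projecting cells, and with every library thinned to the smallest 205 rose and 92 fell. The part of depth, base composition, spike-in share and replicate spread in the differences was not tested.

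**Figure D5:**
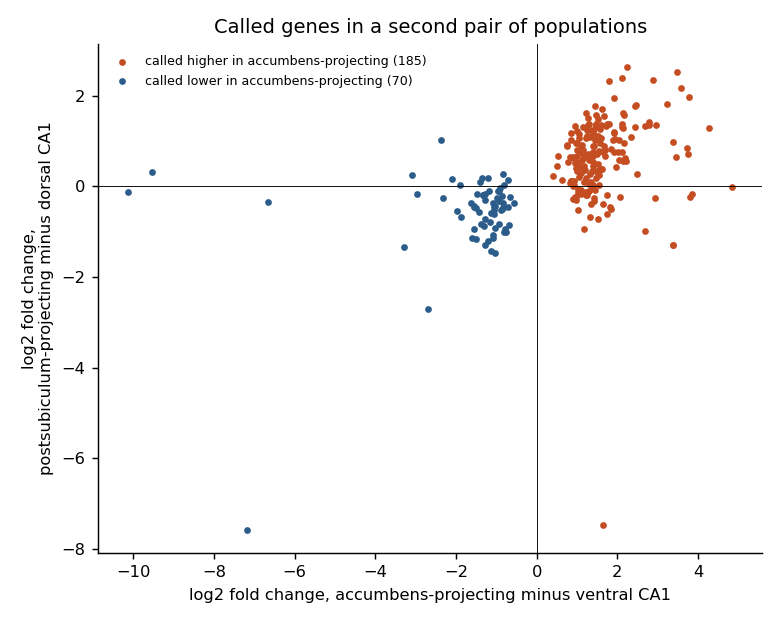
Each point is a gene called between accumbens-projecting and ventral CA1 cells that was also tested between postsubiculum-projecting and dorsal CA1 cells. The x axis is the log2 fold change over ventral CA1 and the y axis that over dorsal CA1. Of the 185 orange points (called higher) 149 lie above 0 on the y axis, and of the 70 blue points (called lower) 11 do.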

How the data were processed

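Read counts per Ensembl gene and a Cuffdiff table of FPKM were deposited by the authors, with scaled fragment columns per the file headers. TopHat2 2.0.6, HTSeq, Cuffdiff 2.1.1, DESeq2, NCBIM37 and mm9 are listed, with no order or role, per the submitters' processing notes; the counter's settings are not given in the sources used here. Per the labels, ERCC RNAs were added before Ovation cDNA amplification. The 92 ERCC and 5 summary lines were left out. Replicate numbers are those of the count columns, 32897 identifiers had a symbol in the reference tables, and depths are given in the results.

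Accumbens-projecting, amygdala-projecting and ventral CA1 libraries shared one fit of 9 in edgeR 4.0.16 (R 4.3.3) with TMM scaling, filterByExpr and robust quasi-likelihood F tests, tested on simulated data. Benjamini-Hochberg adjustment ran over 12981 genes, with calls under 0.05. The biological coefficient of variation was 0.744. P-values measure only the spread between these libraries, labelled biological replicates. Alternatives used DESeq2 1.42.0 and limma 3.58.1 (voom, or FPKM of at least 1 in 3 libraries with a pseudocount of 1). Levels across CA1 populations were scaled over 48 libraries.

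Ranked genes were called, separated the groups, and averaged 10 CPM or more in whichever group was higher, 12 per direction by fold. Genes of predicted, ribosomal, mitochondrial or sex-linked kind were not ranked. The called member with the smallest p in each list and direction was added. All other genes were named after their values were seen. A called gene of the presynaptic list is counted but its values are not reported here. The comparison and lists were chosen with earlier results of these data known.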

Additional observations from a re-analysis of the deposited data

How the results depend on the processing

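Of 47 called genes named by the ranking and list rules, 11 were called at every setting run and 12 whichever library was left out; no named gene reversed. The number of genes called between accumbens-projecting and ventral CA1 cells, 265, was 918 with DESeq2, 543 with no filter on low counts, 915 in the fit of 48 libraries, 457 with limma voom and quality weights, and 168 with limma on log2(FPKM + 1). Leaving out 1 library gave 64 to 286 calls. RLE or upper-quartile scaling, a stricter filter and the fit of the 6 libraries alone moved it by less than 1.5 times. So did leaving mitochondrial genome genes out of the counts and tests, GC and length offsets, and thinning. The last 2 were chosen after seeing the data. Against amygdala-projecting cells, the 3 calls became 379 with DESeq2, 180 with no filter, 354 in the fit of 48 libraries, 1 with the replicate block, and 0 in the fit of 6 libraries, with voom or with FPKM. Leaving out 1 library gave 0 to 11. The cause was not tested. Replicate numbers did not pair the samples: same-numbered accumbens-projecting and ventral libraries had correlations of deviations of -0.047, 0.0018 and 0.028, and not every library was closest to its own number. With the replicate block 236 genes were called between accumbens-projecting and ventral CA1, 170 higher and 66 lower. Agrp, Eya1, Myl12a, Mov10, Tbc1d2b, Htr2a, Grin1, Neto1, Nrxn3, Spock1, Mapre3, Sptbn1 and Cox7c lost their calls there.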
